A study of Mus musculus with 26 samples.

Results

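Loss of the kinase mTOR was compared between 2 kinds of lung dendritic cells (DCs): CD11b DCs from untreated lungs and inflammatory DCs from lungs exposed to house dust mite (HDM). The quantity described is the difference of the knockout effects, that is, the KO minus WT change of a gene in inflammatory DCs minus the same change in lung CD11b DCs, on the scale log2(normalized count + 1). A negative value means that KO moved the gene further down, or less far up, in inflammatory DCs than in lung CD11b DCs. The contrast used 12 of the 26 libraries of the series, 3 in each of 4 groups. Of 23420 genes listed, 16782 were above 0 in at least 1 of these libraries. The 12607 genes with a normalized count of at least 10 in at least 2 of the 12 libraries were tested.

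DCs take up antigen in the airways and lung tissue, carry it to lymph nodes and present it to T cells. CD11b DCs of the resting lung are mostly conventional type 2 DCs, while inflammatory DCs are known to arise largely from monocytes that enter the lung during allergic or infectious inflammation. mTOR is the catalytic subunit of mTOR complex 1 and mTOR complex 2, which respond to nutrients and growth factors, promote protein and lipid synthesis, and restrain lysosome formation and autophagy. In myeloid cells mTOR is also known to shape interferon, cytokine and metabolic programs.

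The KO groups came from mice labelled mTORΔAPC and the WT groups from wild-type littermates; all cells were purified by flow cytometry. Lung CD11b DCs were taken at steady state. The inflammatory DCs came from anesthetized mice given 25 µL of HDM extract with 1 mg of protein per mL into the nose 3 times a week, and were collected on day 17 by the sample labels or day 18 by the treatment protocol. The sources used here did not name the Cre driver, the ages, or whether a library came from 1 mouse or several, so p-values measure the spread between these libraries, which may be technical. Every comparison between the cell types is also a comparison between untreated and HDM-treated mice.

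The libraries held 8.72 to 14.1 M counted reads and 12992 to 14407 genes above 0, and libraries of 1 group correlated at 0.916 or more across genes. Among lung CD11b libraries, WT replicate 3 and KO replicates 2 and 3 had the fewest genes above 0, 12992 to 13173. The lung CD11b WT libraries and KO replicates 2 and 3 had Xist and almost no Y-linked counts, whereas all 6 inflammatory libraries had Y-linked counts. Lung CD11b KO replicate 1 and inflammatory WT replicate 1 had both, with Y-linked sums of 1317.7 and 1419.8 beside Xist counts of 1450.4 and 717.5. Sex thus differed between the cell types, and these 2 libraries differed from their groups; gene counts without them are given for the whole contrast and for some lists.

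Mtor, the targeted gene on chromosome 4 (148448611 to 148557683, plus strand, mm10), was measured first. Its normalized counts in lung CD11b DCs were 475.6, 363.7 and 396.6 in WT and 297.5, 316.0 and 169.3 in KO. Inflammatory WT libraries held 403.6, 345.1 and 336.2 and the inflammatory KO libraries 196.3, 236.1 and 217.5. The KO libraries lay below the WT libraries in both cell types without overlap, and Mtor RNA remained in all of them. The KO effect on Mtor was -0.70 ± 0.22 (SE, adjusted p = 0.0386) in lung CD11b DCs and -0.74 ± 0.22 (adjusted p = 0.144) in inflammatory DCs. The lung call was lost in 13 of 26 alternative fits. The difference of the effects was -0.04 ± 0.31 with a 95% interval of -0.70 to 0.63 (adjusted p = 0.964), and these gene counts do not show which exons the remaining RNA holds.

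The KO effect differed between the cell types for 851 genes, 6.75% of those tested (limma, Benjamini-Hochberg adjusted p under 0.05). The difference was lower for 545 genes (4.32%) and higher for 306 (2.43%). In lung CD11b DCs 2273 genes (18.0%) changed with KO, 1152 up (9.14%) and 1121 down (8.89%). In inflammatory DCs 173 genes (1.37%) changed, 87 up (0.690%) and 86 down (0.682%). The count for the difference rose to 1414 without lung CD11b KO replicate 1 and fell to 547 without inflammatory KO replicate 3. Without the 2 libraries that carried counts of both sexes it was 1045, and the inflammatory count fell from 173 to 60. The inflammatory count was also 40, 107 and 40 without WT replicate 1, 2 or 3, and 34 and 43 without KO replicate 2 or 3.

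Most called differences came with a larger KO effect in lung CD11b DCs. Of the 545 lower genes, 493 (90.5%) had a larger absolute effect in lung CD11b DCs, and the median effects were 1.40 there and -0.10 in inflammatory DCs. Of the 306 higher genes, 249 (81.4%) had the larger effect in lung CD11b DCs, where the median was -0.90 against 0.30 in inflammatory DCs. Over all tested genes the share with the larger effect in lung CD11b DCs was 67.8%. Since the difference is built from these 2 effects, these shares describe the called genes and are not a separate test.

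**Figure D1:**
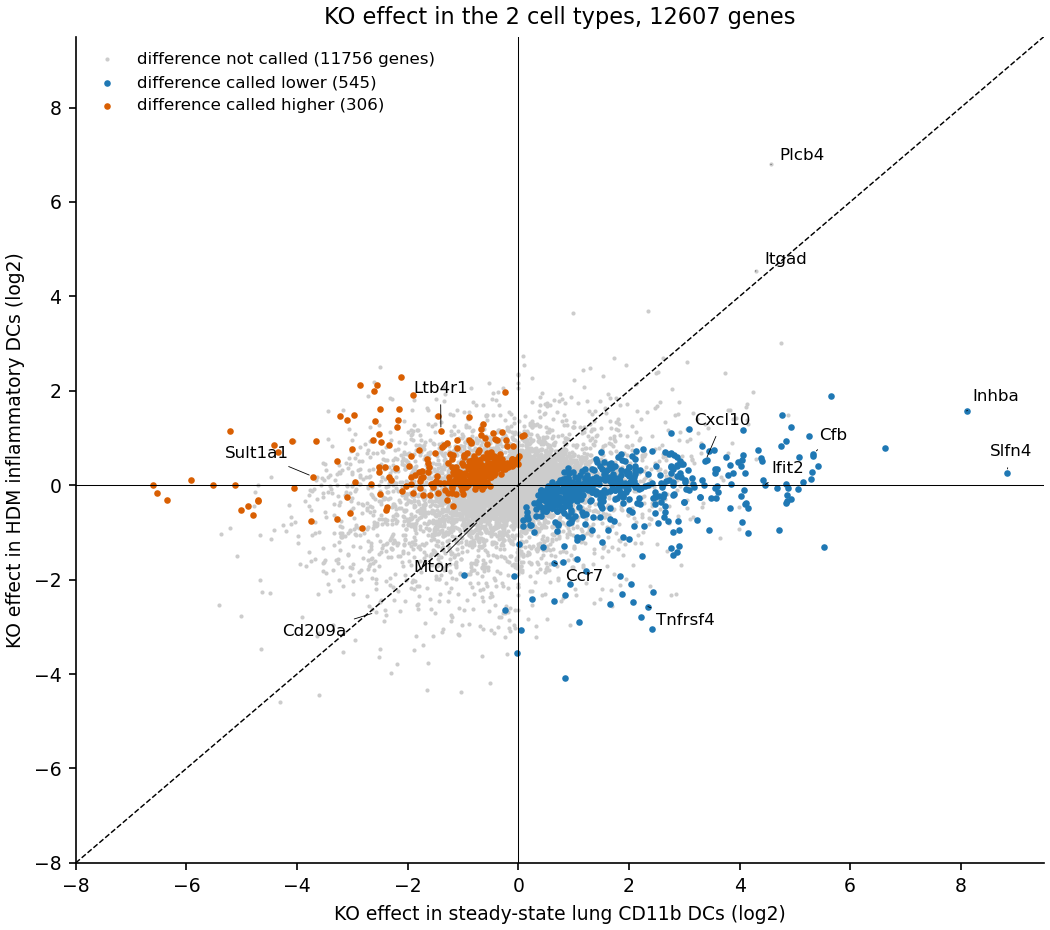
KO effect of each tested gene in steady-state lung CD11b DCs (x axis, log2) against that in HDM inflammatory DCs (y axis, log2); blue and orange points are the 545 genes called lower and the 306 called higher for the difference, and the dashed line marks equal effects. Blue points spread along the right of the x axis, where the lung effect is positive and the inflammatory effect is near 0, and Plcb4 and Itgad lie far up with both effects positive.

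Between the KO effects in the 2 cell types, which share no libraries, Pearson's r across the 12607 genes was 0.21 and Spearman's rho 0.13. Genes are not independent replicates, so no p-value is attached. Of the 173 genes called in inflammatory DCs, 10 were also called in lung CD11b DCs with the opposite sign and 72 with the same sign. Over all tested genes 18.0% were called in lung CD11b DCs. The difference was called for the 10 genes of opposite sign. Among the 72 of the same sign it was not called for 67 and called for 5. The 5 were Inhba, Ly6a, Ifi47, Sp140 and Cd244, named after their values were seen.

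Interferon-stimulated effectors, the antiviral genes that type I and type II interferons switch on, made up the clearest group. Of 64 tested members of the list of 65, the difference was lower for 55 (85.9%) and higher for none, against 4.32% lower among all tested genes, and the list's median difference was -2.16. In lung CD11b DCs 60 members (93.8%) rose with KO, against 9.14% of all tested genes. None fell, and the median effect was 2.21. In inflammatory DCs 1 member (1.56%) rose in limma, against 0.690% of all tested genes. It was Gbp2, a guanylate-binding GTPase, and the median effect over the list was 0.06. There 14 members had an unadjusted p under 0.05 in limma, and edgeR called 2 and DESeq2 3. The median level of the list over members was 8.22 to 8.35 in the lung CD11b WT libraries, 10.48 to 10.72 in the KO libraries, and 9.44 to 9.63 in all 6 inflammatory libraries on the log2(normalized count + 1) scale. Inflammatory libraries of both genotypes thus lay between lung CD11b WT and lung CD11b KO. Compared with lung CD11b WT, inflammatory WT libraries had higher levels of 52 members and lower levels of 6, where 41.5% of all tested genes differed, 21.1% higher and 20.4% lower; this comparison shares its WT libraries with both KO effects. The number of members called lower stayed between 52 and 57 in every alternative fit.

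Ifit2 encodes an antiviral protein that binds RNA and restrains translation. Its normalized counts in lung CD11b DCs were 177.7, 247.4 and 179.0 in WT and 4892.0, 4261.8 and 4139.7 in KO. In inflammatory DCs they were 2051.0, 1584.2 and 1445.9 in WT and 1477.6, 1744.5 and 1876.0 in KO. Every lung CD11b KO library was far above every lung CD11b WT library, and the inflammatory genotypes overlapped. The effects were 4.47 ± 0.16 in lung CD11b DCs and 0.01 ± 0.16 in inflammatory DCs, a difference of -4.45 ± 0.23 (adjusted p = 1.19e-07).

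Slfn4, a Schlafen gene of myeloid cells, had the largest negative difference among the genes named here. Lung CD11b WT libraries held 7.6, 3.2 and 15.3 normalized counts, KO libraries 2884.4, 4389.1 and 4323.2, inflammatory WT libraries 1015.3, 1078.0 and 966.6, and inflammatory KO libraries 1715.0, 979.1 and 1078.8. It was almost absent from lung CD11b WT, and its difference was -8.57 ± 0.51 (adjusted p = 1.9e-07). Oasl1, which limits interferon production, rose from a mean of 32.6 ± 10.2 to 1294.1 ± 127.3 (SD, n = 3 libraries) in lung CD11b DCs, against 345.6 ± 59.5 in inflammatory WT and 415.7 ± 29.8 in inflammatory KO. Its difference was -5.03 ± 0.29. Usp18, a protease that removes ISG15 and damps interferon receptor signalling, was also highest in lung CD11b KO, with means of 420.0, 4076.2, 1456.0 and 1231.2 in these 4 groups and a difference of -3.53 ± 0.23. The oligoadenylate synthetase genes Oas1a and Oas1g and the related Oasl2 had differences of -2.86 ± 0.19, -4.25 ± 0.27 and -3.60 ± 0.21. Oas1a and Oas1g are near-identical copies, so their split of reads is uncertain.

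To show what the called genes share outside the expression values, promoter windows of 300 bases (250 before to 50 after a RefSeq gene start, GRCm38.p6) were searched on both strands for 4 motifs. A window existed for 410 of the 545 lower genes and 240 of the 306 higher genes. The interferon-stimulated response element, searched as GAAA, any 2 bases and GAAA again, was found for 61 (14.9%) of the lower genes, 9 (3.75%) of the higher genes, 395 (3.92%) of 10074 tested genes with a window, and 3.44% of all 32851 windows. Outside the interferon list, 36 of 367 lower genes (9.81%) held it, and within the tested list 29 of 50 (58.0%). The coordinated lysosomal element, searched as TCACGTGA, which contains the E-box, was found for 2.44% of the lower and 0.833% of the higher genes against 2.21% of tested genes. The CHOP and ATF4 composite element, searched as TGATGNAA, was found for 4.88% of lower and 4.17% of higher genes against 2.90%. The sterol response element, searched as TCACNCCAC, was found for 1.46% of lower and 2.92% of higher genes against 1.36%. A match describes these letters in this window and is not evidence of binding. Of the 10 lower genes with the smallest p, 8 had a window and 3 held the interferon element on either strand. Ifit3 and Oas1a are shown because their windows differ in where the element sits, in capitals here, written 5′ to 3′ on the gene's strand. At Ifit3, chr19:34583279-34583578 on the plus strand, the 2 matches begin at -156 and -122 from the start, both as the reverse complement. At Oas1a, chr5:120907476-120907775 on the minus strand, 2 overlapping matches begin at -20 and -14.
Ifit3: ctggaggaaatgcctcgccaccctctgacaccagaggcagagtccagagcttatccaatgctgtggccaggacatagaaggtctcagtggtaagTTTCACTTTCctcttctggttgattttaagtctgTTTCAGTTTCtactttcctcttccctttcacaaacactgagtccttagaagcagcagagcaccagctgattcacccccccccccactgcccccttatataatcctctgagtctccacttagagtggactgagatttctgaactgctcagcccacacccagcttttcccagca
Oas1a: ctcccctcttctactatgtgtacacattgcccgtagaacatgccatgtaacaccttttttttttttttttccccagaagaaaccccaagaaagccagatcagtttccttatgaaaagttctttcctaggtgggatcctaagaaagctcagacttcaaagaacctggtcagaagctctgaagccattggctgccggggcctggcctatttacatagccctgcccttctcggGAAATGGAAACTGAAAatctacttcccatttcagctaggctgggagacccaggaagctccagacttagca

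Ifit3, a partner of Ifit2 family proteins in antiviral defence, held 125.7, 141.7 and 145.1 normalized counts in lung CD11b WT, 2422.3, 2373.9 and 2227.3 in KO, 630.3, 463.6 and 383.2 in inflammatory WT and 520.0, 391.4 and 440.1 in inflammatory KO. Oas1a held 322.8, 302.4 and 342.6, then 1603.5, 2103.8 and 1713.3, then 1495.4, 1320.7 and 1208.7, then 1123.2, 1056.0 and 894.0 in the same order of groups. In inflammatory DCs the genotypes overlapped for Ifit3, and for Oas1a the KO libraries lay below the WT libraries with an effect of -0.39 ± 0.14 that was not called (adjusted p = 0.231). The difference for Ifit3 was -4.19 ± 0.24 (adjusted p = 1.58e-07).

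**Figure D2:**
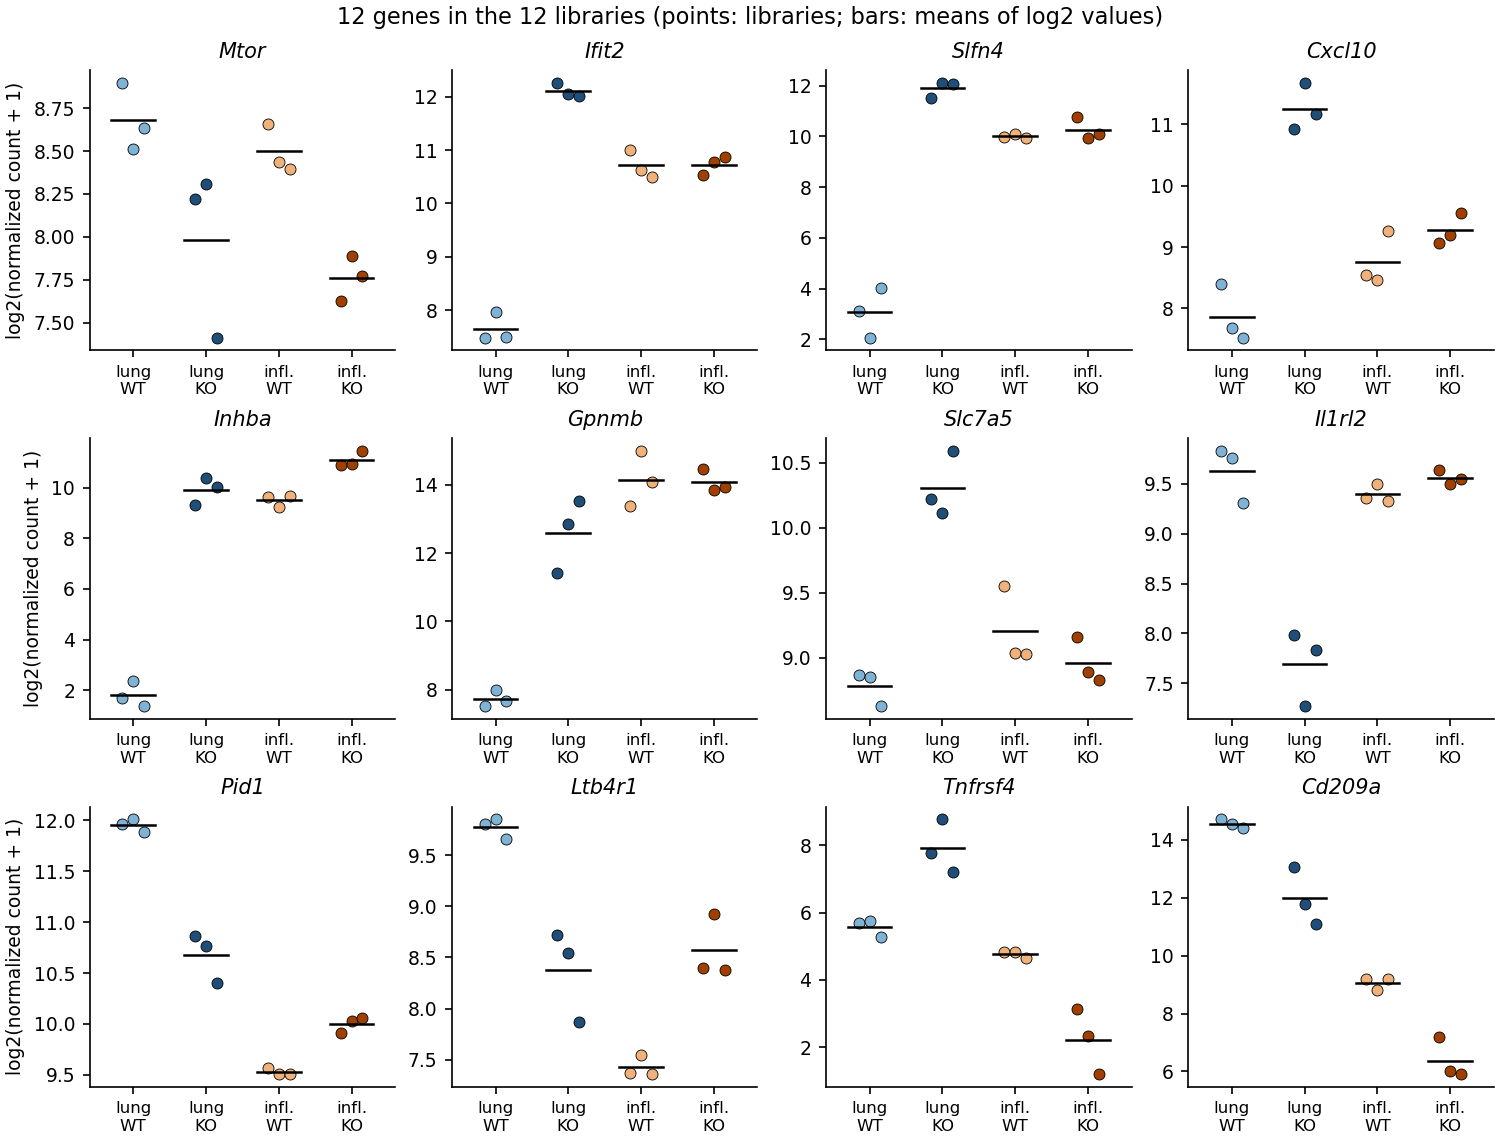
Level of 12 genes, log2(normalized count + 1) on the y axis, in each of the 12 libraries by group (lung, lung CD11b DCs; infl., inflammatory DCs); points are libraries and bars the means of the log2 values, and the y axes do not start at 0. Ifit2, Slfn4, Cxcl10 and Slc7a5 are highest in lung KO, Il1rl2 is lowest there, and Cd209a falls with KO in both cell types.

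Genes that relay the interferon signal moved less. Of 35 tested receptors, STAT and IRF factors and nucleic acid sensors, 8 were lower and 1 higher for the difference. That is 25.7% called, against 6.75% of all tested genes, with a median difference of -0.40. The lower count was 4 without lung CD11b WT replicate 1 or inflammatory KO replicate 1 or 3, and 5 without lung CD11b WT replicate 2 or inflammatory WT replicate 2 or 3. In lung CD11b DCs 14 rose and 3 fell (48.6% called, against 18.0% of all tested genes). Stat2, a subunit of the interferon-activated ISGF3 factor, had means of 808.0 ± 168.5 in lung CD11b WT, 2552.6 ± 445.2 in KO, 1958.5 ± 476.4 in inflammatory WT and 1769.0 ± 229.8 in KO (SD, n = 3). Its difference was -1.79 ± 0.28, that of Irf9 -0.76 ± 0.17 and that of Adar, an RNA-editing enzyme induced by interferon, -1.09 ± 0.19.

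Of 24 tested chemokines, 8 (33.3%) were lower for the difference, against 4.32% of all tested genes. None was higher, and the median was -1.27. With KO 11 (45.8%) rose in lung CD11b DCs, against 9.14% of all tested genes. In inflammatory DCs 1, Ccl5, rose (4.17%, against 0.690%). Cxcl10, an interferon-induced attractant of activated T cells, had 334.8, 205.1 and 183.0 normalized counts in lung CD11b WT and 1937.8, 3258.0 and 2291.4 in KO. The inflammatory WT libraries had 371.6, 353.2 and 610.4 and the KO libraries 532.4, 587.7 and 753.2. The lung genotypes stood apart and the inflammatory genotypes overlapped, with a difference of -2.87 ± 0.37 (adjusted p = 0.000284). Ccl7, a monocyte attractant, was uneven between libraries: lung CD11b KO held 1225.7 in replicate 1 and 4759.3 and 4238.8 in the others, against 158.0 to 637.0 in WT, and its difference was -3.35 ± 0.73, not called with replicate 1 as the only KO library (adjusted p = 0.0911). Among the lung CD11b libraries with more detected genes only (WT replicates 1 and 2, KO replicate 1), 2 chemokines were called lower, and among those with fewer (WT replicate 3, KO replicates 2 and 3), 9; without lung CD11b WT replicate 2 or inflammatory WT replicate 3 the count was 5. The median chemokine level in lung CD11b KO replicate 1 was 9.40, against 10.54 and 10.53 in the other KO libraries and 7.28 to 8.42 in WT.

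Of 34 tested cytokines and growth factors, 9 were lower for the difference and 2 higher, with a median of -0.73. The called share was 32.4%, against 6.75% of all tested genes. Inhba, which encodes the activin A subunit, held 2.2, 4.2 and 1.6 normalized counts in lung CD11b WT and 639.5, 1334.7 and 1053.6 in KO. In inflammatory DCs it held 792.1, 609.8 and 822.5 in WT and 1905.6, 1975.4 and 2791.4 in KO. KO libraries lay above WT libraries in both cell types without overlap, from a near-zero level in 1 and a high level in the other. Its effects were 8.10 ± 0.29 and 1.57 ± 0.29 and the difference -6.53 ± 0.41 (adjusted p = 3.33e-07). With so few reads in lung CD11b WT, the size depends on the pseudocount, and was -4.95 with a pseudocount of 8 and -6.90 with 0.25. The inflammatory call for Inhba was lost in 5 alternative fits, each leaving out 1 inflammatory library.

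Il1rn, the interleukin-1 receptor antagonist, rose with KO in lung CD11b DCs from a mean of 344.8 ± 95.1 to 6980.5 ± 1901.0 and had means of 3613.0 ± 541.2 and 5977.2 ± 435.8 in inflammatory WT and KO, with a difference of -3.60 ± 0.30. Csf1, the macrophage growth factor, held 65.0, 48.6 and 25.0 in lung CD11b WT, 709.2, 924.3 and 1171.7 in KO, 1387.8, 1157.4 and 1297.8 in inflammatory WT, and 1984.1, 2062.9 and 1708.8 in inflammatory KO. For Il1rn and Csf1 the inflammatory KO libraries were above the WT libraries, but the effects of 0.74 ± 0.21 and 0.58 ± 0.27 were not called (adjusted p = 0.136 and 0.447). Spp1, which encodes osteopontin, spread widely, from 4122.7 to 16436.7 in lung CD11b KO and 22363.1 to 56020.0 in inflammatory WT, against 237.0 to 498.0 in lung CD11b WT. Its difference was -5.22 ± 0.65. Osm, an IL-6 family cytokine, had a difference of -2.46 ± 0.30.

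Il12b, Il6, Il1b, Il23a and Ccl17, which help direct T cell responses, were followed whatever their values. Il12b, the p40 subunit shared by interleukins 12 and 23, had means of 233.2 ± 88.2 and 750.8 ± 176.9 in lung CD11b WT and KO and 29.9 ± 15.7 and 17.1 ± 7.4 in inflammatory WT and KO. Its difference was -2.48 ± 0.59 (adjusted p = 0.0199), with a rise of 1.73 ± 0.42 in lung CD11b DCs and an uncalled effect of -0.75 ± 0.42 in inflammatory DCs. The call was lost with only the lung CD11b libraries that had more detected genes (adjusted p = 0.078). The differences were -0.99 ± 0.55 for Il6 (adjusted p = 0.315), -0.20 ± 0.37 for Il1b (0.801), 0.65 ± 1.19 for Il23a (0.804) and -1.35 ± 0.61 for Ccl17 (0.214). Their 95% intervals were -2.17 to 0.18, -0.99 to 0.58, -1.90 to 3.20 and -2.66 to -0.04. Il23a stayed at 17.0 normalized counts or fewer in every library, so a change in it was not detectable at this depth.

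Complement and matrix genes made by myeloid cells were tested next. Cfb, complement factor B, had means of 149.6 ± 24.4 and 6294.4 ± 2316.7 in lung CD11b WT and KO, and 11675.4 ± 1384.4 and 18625.8 ± 3183.3 in inflammatory WT and KO. Its difference was -4.67 ± 0.31, and the uncalled inflammatory effect was 0.67 ± 0.22 (adjusted p = 0.188). C3, the central complement component, had a difference of -1.69 ± 0.33. Of 16 complement genes 4 were lower and 1 higher for the difference (31.2% called, against 6.75% of all tested genes). The lower count was 8 without lung CD11b KO replicate 1, with or without inflammatory WT replicate 1. It was 2 without lung CD11b KO replicate 2 or 3, inflammatory WT replicate 2, or inflammatory KO replicate 1 or 2. The higher gene, Itgam, and the lower gene C3ar1, a complement receptor, each lost their call in 15 of 26 alternatives. Of 15 metalloproteinases and inhibitors 2 (13.3%) were lower (5 without lung CD11b KO replicate 1), against 4.32% of all tested genes. They were Mmp14 at -2.73 ± 0.32 and Mmp19 at -2.66 ± 0.38, both matrix-degrading enzymes.

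**Figure D3:**
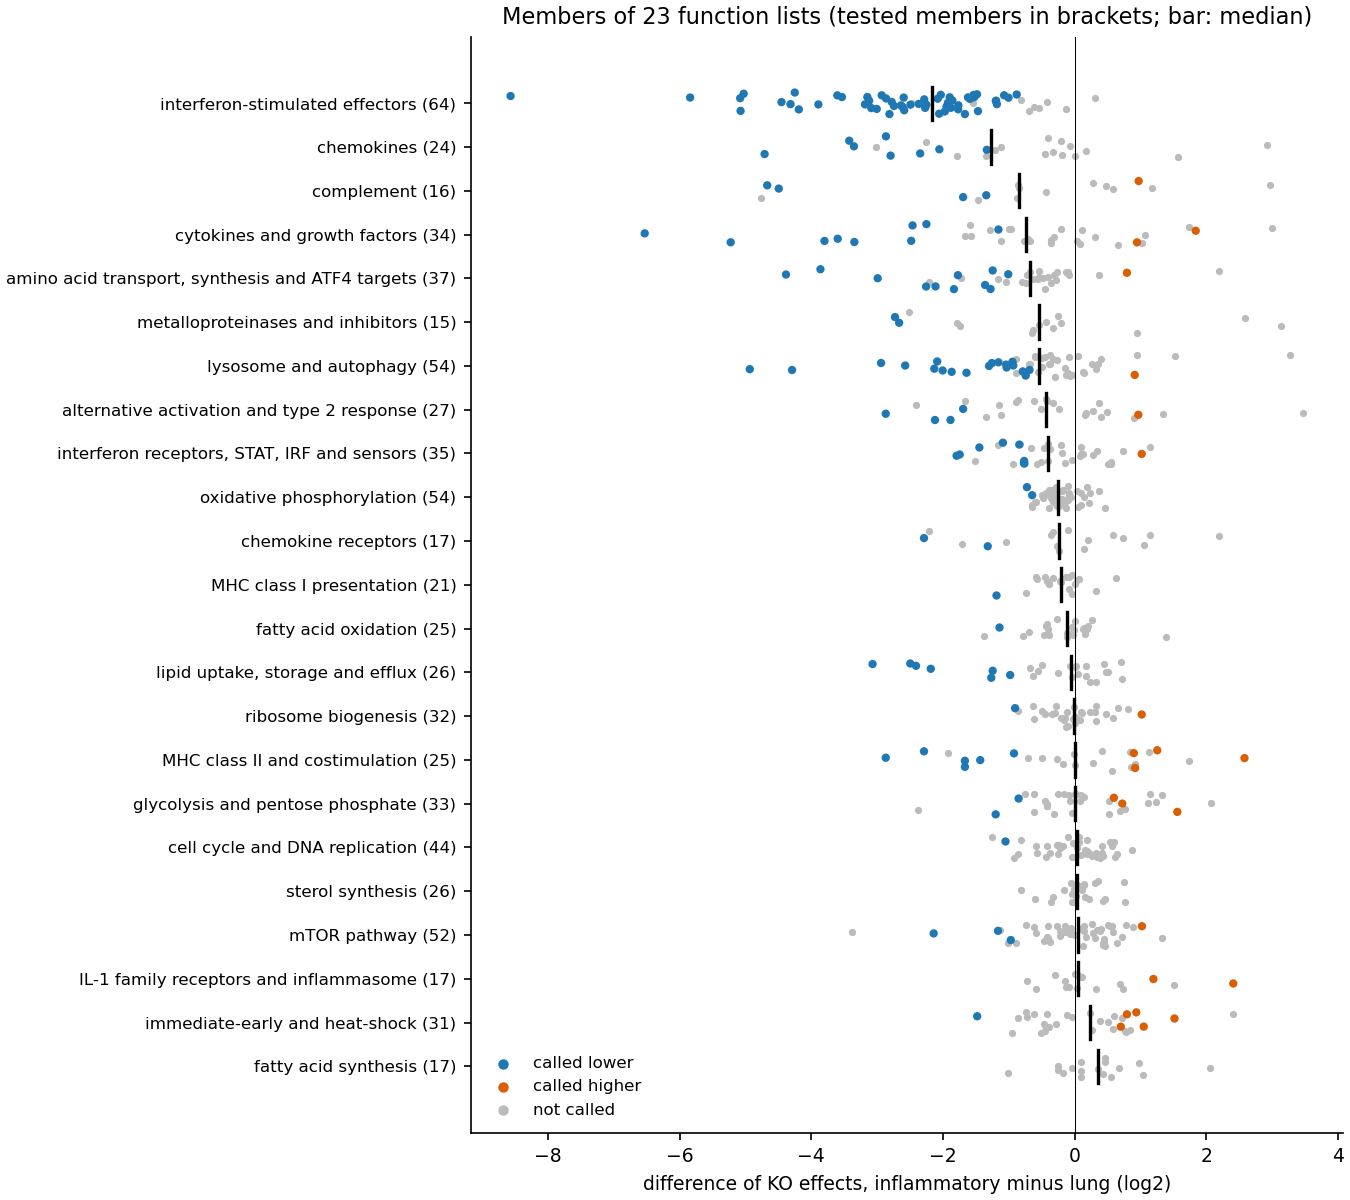
Difference of the KO effects (x axis, log2, inflammatory minus lung CD11b) for each tested member of 23 function lists (rows, ordered by median, with the number of tested members); blue and orange points are members called lower and higher, grey points are not called and bars are medians. The interferon-stimulated effectors stand furthest to the left with a median of -2.16, while sterol and fatty acid synthesis have no called member.

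Lysosome and autophagy genes, which mTOR complex 1 restrains through TFEB and related factors, were lower for the difference in 19 of 54 cases and higher in 1, with a median of -0.53. In lung CD11b DCs 25 rose and 3 fell with KO, and in inflammatory DCs limma, edgeR and DESeq2 called 0, with 4 at an unadjusted p under 0.05 in limma. Over all tested genes limma called 6.75% for the difference, 18.0% in lung CD11b DCs and 1.37% in inflammatory DCs. In this list it called 37.0%, 51.9% and 0.0%. Gpnmb, a lysosomal glycoprotein of macrophages, held 183.1, 253.8 and 200.7 normalized counts in lung CD11b WT and 2755.6, 7409.0 and 11760.7 in KO. Inflammatory libraries held 10614.3, 32445.6 and 17193.5 in WT and 22465.0, 14825.2 and 15782.6 in KO. KO libraries of lung CD11b DCs, with replicate 1 lowest, lay between lung CD11b WT and most inflammatory libraries, and the difference was -4.93 ± 0.62 (adjusted p = 0.000221). Cd63, a tetraspanin of late endosomes, and Atp6v1b2, a proton pump subunit, had differences of -2.09 ± 0.30 and -1.30 ± 0.21. Ctsk, a cathepsin, rose from a mean of 66.4 ± 41.4 to 457.6 ± 229.2 in lung CD11b DCs; in inflammatory DCs its means were 15930.6 ± 3144.3 in WT and 5975.3 ± 1444.4 in KO, an effect of -1.43 ± 0.48 that was not called (adjusted p = 0.202). The lysosomal count depended on the libraries: 6 members were called lower with only the lung CD11b libraries that had more detected genes, 24 with only those that had fewer, and 27 without the 2 libraries of mixed sex.

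Amino acid transporters, synthesis enzymes and ATF4 targets include genes that mTOR complex 1 itself is known to promote through ATF4. Of 37 tested, 11 were lower for the difference and 1 higher, with a median of -0.68. With KO 12 rose and 1 fell in lung CD11b DCs. In inflammatory DCs limma and edgeR called 0 and DESeq2 3, with 10 at an unadjusted p under 0.05 in limma. The limma shares were 32.4%, 35.1% and 0.0%, against 6.75%, 18.0% and 1.37% of all tested genes. The lower count for the difference was 7 with only the lung CD11b libraries that had more detected genes and 14 with only those that had fewer. Asns, asparagine synthetase, held 36.8, 26.4 and 13.7 normalized counts in lung CD11b WT, 178.3, 328.3 and 329.2 in KO, 385.0, 356.6 and 221.1 in inflammatory WT, and 272.0, 157.9 and 98.1 in inflammatory KO. The inflammatory genotypes overlapped, and the difference was -4.38 ± 0.59 (adjusted p = 0.000374). Slc7a5, the large neutral amino acid transporter, held 395.0 to 465.8 in lung CD11b WT, 1105.7 to 1540.0 in KO, 520.3 to 749.5 in inflammatory WT and 452.7 to 569.8 in inflammatory KO, a difference of -1.77 ± 0.24. Slc7a2, which imports arginine, Aars, the alanyl-tRNA synthetase, and Ddit3, the stress factor CHOP, had differences of -3.86 ± 0.45, -1.36 ± 0.19 and -2.26 ± 0.36. The median level of the list was 8.83 to 9.29 in inflammatory KO and 9.62 to 9.66 in inflammatory WT.

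**Figure D4:**
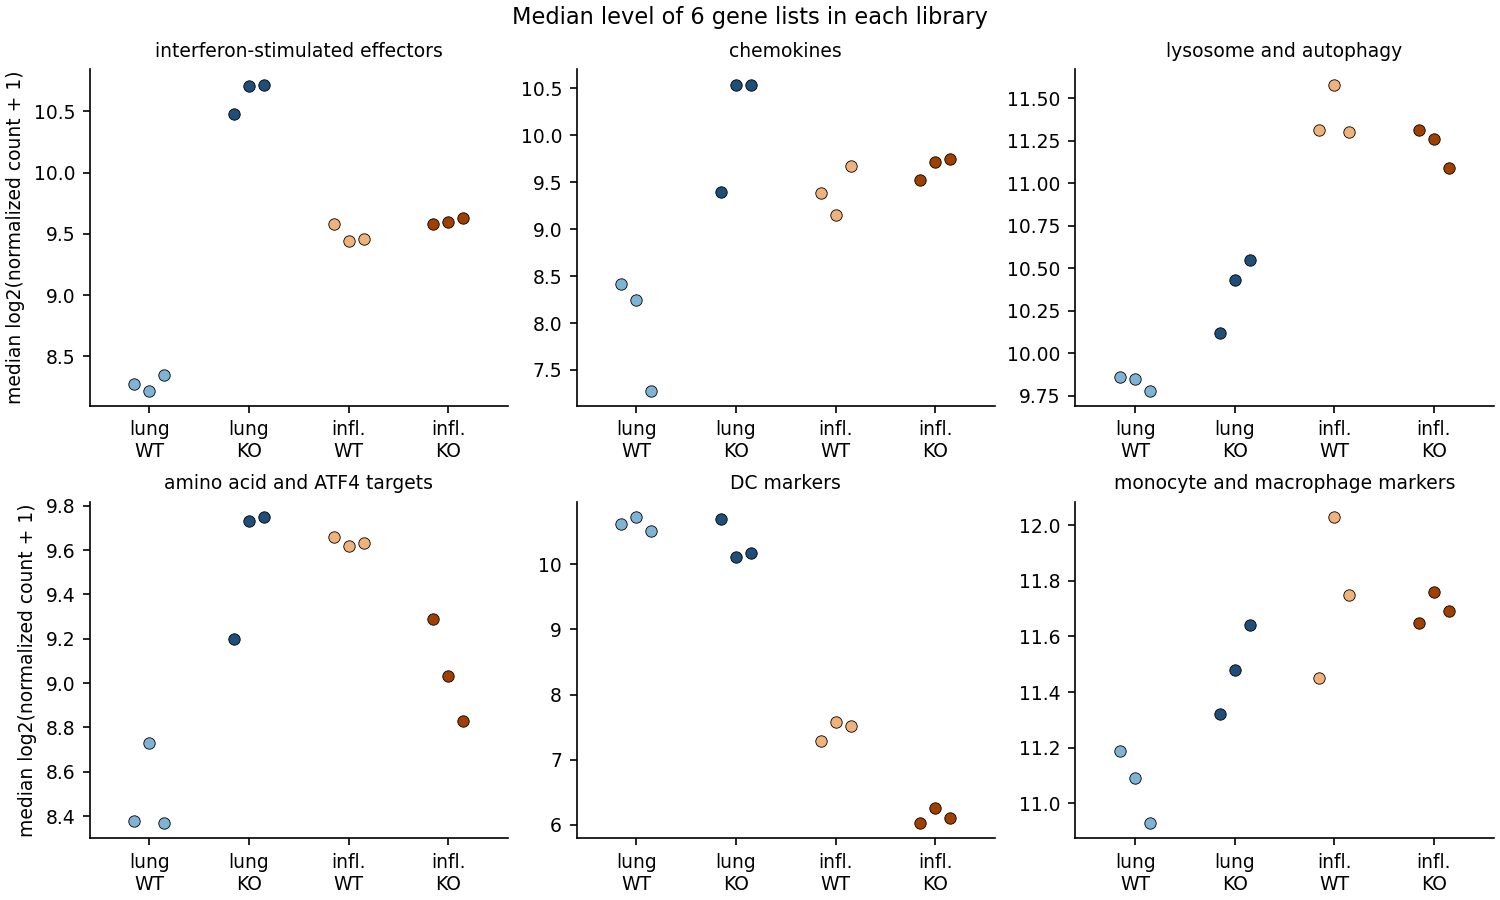
Median log2(normalized count + 1) over the tested members of 6 gene lists (y axis, not starting at 0) in each library by group (x axis). Interferon-stimulated effectors are highest in the 3 lung CD11b KO libraries, at 10.48 to 10.72, and DC markers are lowest in inflammatory KO, at 6.03 to 6.26.

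Among the 26 tested genes that handle lipid import, droplets and export, 7 (26.9%) were lower for the difference, against 4.32% of all tested genes. None was higher, and the median was -0.05. Fabp5, a fatty acid chaperone, had means of 331.7 ± 34.1 and 1909.6 ± 588.4 in lung CD11b WT and KO and 6904.0 ± 2318.9 and 4582.2 ± 1402.0 in inflammatory WT and KO, a difference of -3.07 ± 0.38. The scavenger receptors Msr1 and Olr1 had differences of -2.18 ± 0.39 and -2.50 ± 0.45, and Plin2, a lipid droplet coat protein, -1.27 ± 0.23. Fabp4 behaved otherwise: it held 192.8, 119.5 and 281.3 normalized counts in lung CD11b WT and 132.7, 188.0 and 158.5 in KO, and fell in inflammatory DCs from 784.1, 1124.0 and 627.4 in WT to 229.8, 96.8 and 99.3 in KO. The lung genotypes overlapped and the inflammatory ones did not, with effects of -0.24 ± 0.35 and -2.65 ± 0.35 and a difference of -2.41 ± 0.50 (adjusted p = 0.00932). That call was lost, with an adjusted p of 0.0598, when only the lung CD11b libraries with fewer detected genes were used; Fabp4 is also a marker of alveolar macrophages.

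Other pathways under mTOR control were read against the 6.75% called over all tested genes. Limma, edgeR and DESeq2 called 0 of 26 sterol synthesis and 0 of 17 fatty acid synthesis genes, with median differences of 0.04 and 0.36 and with 3 and 1 genes at an unadjusted p under 0.05 in limma. Of 54 oxidative phosphorylation subunits 2 were lower (0 without inflammatory WT replicate 1 or KO replicate 3, and up to 8 in another alternative). Among these subunits 44 had a difference below 0, against 6187 of 12607 tested genes, with a median of -0.25. Of 32 ribosome biogenesis genes 1 was lower and 1 higher, and of 44 cell cycle genes 1 was lower. Of 25 fatty acid oxidation genes 1 was lower. Acadl, the long-chain acyl-CoA dehydrogenase, was that oxidation gene, at -1.15 ± 0.20. Of 33 glycolysis and pentose phosphate genes 5 (15.2%) were called, 3 higher and 2 lower. Without the 2 libraries of mixed sex 5 were higher and 1 lower; without lung CD11b KO replicate 1, 6 and 2; and without inflammatory WT replicate 1 or KO replicate 3, 2 and 0. The higher genes included Pdk1, which restrains pyruvate entry into mitochondria, at 1.56 ± 0.30, and G6pdx, the first pentose phosphate enzyme, at 0.73 ± 0.15. Among 52 mTOR pathway genes 4 (7.69%) were called, 3 lower and 1 higher. Fnip2, a partner of folliculin, rose from a mean of 201.8 ± 45.0 to 780.1 ± 300.9 in lung CD11b DCs against 1615.5 ± 535.0 and 1321.7 ± 164.5 in inflammatory WT and KO, with a difference of -2.14 ± 0.39, and Lamtor3, a Ragulator subunit, had -0.97 ± 0.22. With only the lung CD11b libraries that had more detected genes, Pdk1, G6pdx and Fnip2 lost their calls (adjusted p = 0.0531, 0.0707 and 0.0579).

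Higher differences mostly marked genes that fell with KO in lung CD11b DCs and held or rose in inflammatory DCs. Pid1, an adaptor linked to insulin signalling, held 4005.1, 4127.9 and 3793.7 normalized counts in lung CD11b WT, 1870.0, 1740.2 and 1351.8 in KO, 759.2, 727.1 and 729.4 in inflammatory WT and 965.2, 1044.1 and 1067.5 in inflammatory KO. The genotypes did not overlap in either cell type and moved in opposite directions, although the inflammatory effect of 0.47 ± 0.12 was not called (adjusted p = 0.0757). Its difference was 1.75 ± 0.17 (adjusted p = 2.18e-05). Il1rl2, the interleukin-36 receptor, was lowest in lung CD11b KO, at 251.9, 153.5 and 226.6, against 908.9, 864.9 and 632.8 in WT and 643.4 to 797.7 in all inflammatory libraries. Its difference was 2.10 ± 0.26, and that of Il1r1, the interleukin-1 receptor, 2.41 ± 0.43.

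Sult1a1, a sulfotransferase, fell in lung CD11b DCs from a mean of 499.3 ± 53.6 to 38.7 ± 14.8, close to its means of 25.1 ± 7.3 and 29.0 ± 9.9 in inflammatory WT and KO, with a difference of 3.89 ± 0.52. H2-M2, a nonclassical MHC class I gene, fell from 649.4 ± 167.3 to 113.0 ± 24.8 in lung CD11b DCs but stood at 1707.6 ± 295.0 and 1511.0 ± 301.6 in inflammatory WT and KO, with a difference of 2.32 ± 0.31. Arsb, a lysosomal sulfatase, fell with KO in lung CD11b DCs, and its difference was 2.39 ± 0.29. Fndc7, a fibronectin type III domain gene, and Arrb1, the receptor adaptor beta-arrestin 1, had differences of 2.90 ± 0.34 and 1.23 ± 0.16.

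MHC class II and costimulation genes split. Of 25 tested, 4 were higher and 6 lower for the difference (40.0% called, against 6.75% of all tested genes), with a median of 0.01. All 4 higher genes were class II genes, H2-Eb1, H2-DMa, H2-DMb2 and H2-Oa, named after their values were seen. H2-Oa, a modulator of peptide loading, had means of 824.7 ± 38.8 and 190.3 ± 90.8 in lung CD11b WT and KO and 29.7 ± 4.2 and 40.9 ± 16.4 in inflammatory WT and KO, a difference of 2.58 ± 0.51. The lower genes encode costimulatory and inhibitory T cell ligands and migration genes. Cd40, which receives T cell help, held 392.3 to 608.6 in lung CD11b WT, 1541.5 to 1822.3 in KO and 391.2 to 506.8 in all inflammatory libraries, a difference of -1.67 ± 0.23. Cd274 and Pdcd1lg2, the ligands of PD-1, had differences of -1.43 ± 0.25 and -2.87 ± 0.36. With only the lung CD11b libraries that had more detected genes, no class II gene was called higher in limma, with adjusted p of 0.0954 for H2-Oa and 0.113 for H2-DMa. The list's higher count was 7 without lung CD11b KO replicate 1 or inflammatory KO replicate 1, and 2 without inflammatory KO replicate 2.

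Immediate-early and heat-shock genes were higher for the difference in 5 of 31 cases and lower in 1, with a median of 0.24. With KO 13 fell and 5 rose in lung CD11b DCs, and 1 fell in inflammatory DCs. These were 19.4%, 58.1% and 3.23% of the list, against 6.75%, 18.0% and 1.37% of all tested genes. Btg2, an antiproliferative early gene, held 21592.0, 21235.9 and 14896.8 in lung CD11b WT, 10694.8, 7701.2 and 7971.8 in KO, 4880.9, 5202.4 and 7626.7 in inflammatory WT and 7687.5, 6688.9 and 8511.2 in inflammatory KO. Only lung CD11b WT stood above the rest, and the difference was 1.52 ± 0.27. Zfp36, which destabilizes cytokine mRNA, and Junb, an AP-1 subunit, had differences of 1.05 ± 0.19 and 0.94 ± 0.20; the call for Zfp36 was lost with all 26 libraries in the fit (adjusted p = 0.0541) and that for Junb with the more detected lung libraries only (0.11). These genes are also known to respond to tissue digestion and sorting, whose part in the result was not tested.

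For 10 genes both KO effects were called with opposite signs. Ltb4r1, the leukotriene B4 receptor, held 897.0, 924.1 and 807.8 in lung CD11b WT and 420.5, 371.0 and 232.7 in KO. In inflammatory DCs it held 164.5, 185.2 and 163.1 in WT and 337.1, 486.9 and 330.7 in KO. No genotype overlapped, and the effects were -1.40 ± 0.21 and 1.15 ± 0.21. Clec12a and Cd33, both inhibitory receptors of myeloid cells, fell by 0.70 and 0.86 in lung CD11b DCs and rose by 0.75 and 0.92 in inflammatory DCs, and Lrrk2, a kinase linked to Rab GTPases, had effects of -0.68 ± 0.21 and 1.19 ± 0.21. Id2, a regulator of DC development, and Pbxip1 completed this direction.

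The other 4 rose in lung CD11b DCs and fell in inflammatory DCs. Tnfrsf4, the receptor OX40, held 50.9, 52.9 and 37.9 in lung CD11b WT, 219.0, 437.5 and 146.4 in KO, 27.6, 27.6 and 24.0 in inflammatory WT and 7.7, 4.0 and 1.3 in inflammatory KO. Its difference was -4.91 ± 0.73 (adjusted p = 0.00091). Tnfrsf4 is also a T cell gene, and 9 summed T cell markers were 744.3 to 1397.9 and 579.4 to 992.4 in lung CD11b WT and KO, and 777.7 to 2133.7 and 248.1 to 467.7 in inflammatory WT and KO. The inflammatory sums did not overlap, whereas the list's median log2 levels did, at 1.47 to 3.35 in WT and 0.00 to 1.81 in KO. The part of T cells in the falls of Tnfrsf4 and Ikzf4 was not tested. Cacnb3, a calcium channel subunit, held 608.6 to 864.9, 1477.6 to 1639.8, 80.0 to 159.9 and 37.3 to 57.0 in the same order, a difference of -2.23 ± 0.34. Stk39, a kinase of ion transport, had a difference of -4.17 ± 0.73. Ikzf4, an Ikaros family factor, held 1.3 normalized counts in inflammatory KO replicate 2 and 0 in the other KO libraries, so its size depends on the pseudocount and its difference ran from -3.05 with a pseudocount of 8 to -6.41 with 0.25. For Ltb4r1, Clec12a, Cd33, Lrrk2, Tnfrsf4, Cacnb3, Stk39 and Ikzf4 the difference was called in all 26 alternatives. The inflammatory effect lost its call in 3 (Lrrk2) to 13 (Stk39) of them, including fits without 1 inflammatory library, and the lung effect lost its call in up to 7 (Lrrk2).

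Ccr7 and Fscn1, a chemokine receptor and an actin-bundling protein of DCs migrating to lymph nodes, lay close to this pattern. Ccr7 held 3670.4, 3692.3 and 2397.5 in lung CD11b WT, 5909.3, 5521.0 and 3842.2 in KO, 251.6, 312.9 and 319.2 in inflammatory WT and 138.8, 103.5 and 56.6 in inflammatory KO. The genotypes stood apart in both cell types, in opposite directions. The effect was 0.65 ± 0.27 (adjusted p = 0.117) in lung CD11b DCs and -1.64 ± 0.27 (adjusted p = 0.0126) in inflammatory DCs, a difference of -2.29 ± 0.39. Fscn1 had a difference of -1.67 ± 0.33, lost within the lung CD11b libraries with fewer or with more detected genes only (adjusted p up to 0.0704). Ccr7 was at a lower level in inflammatory DCs than in lung CD11b DCs in both genotypes. In bulk RNA fewer migrating cells and less RNA per cell cannot be told apart.

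**Figure D5:**
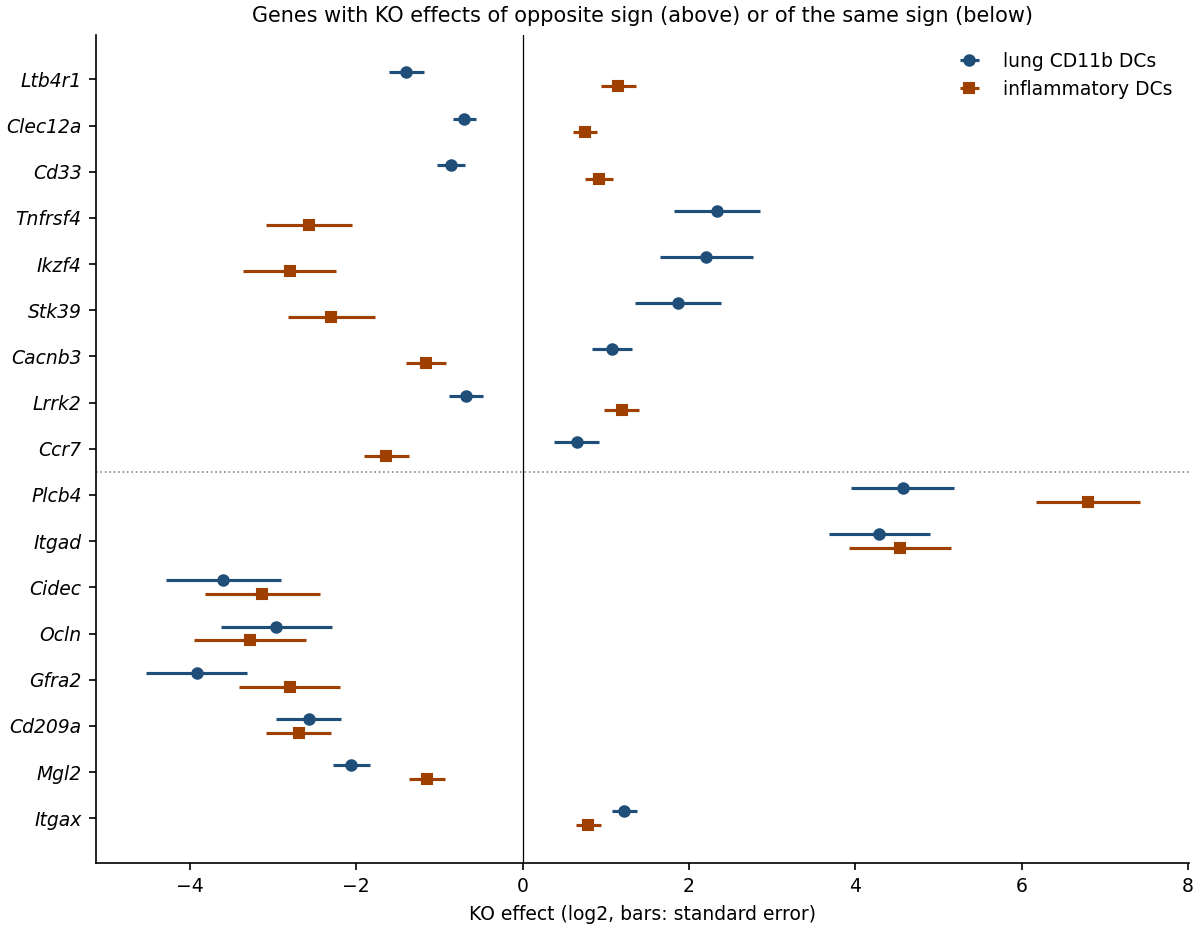
KO effect with its standard error (x axis, log2) in lung CD11b DCs (circles) and inflammatory DCs (squares) for genes with effects of opposite sign (above the dotted line) and of the same sign (below). Ltb4r1 lies at -1.40 and 1.15, and Cd209a at -2.57 and -2.69.

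Among the 67 genes with both effects called in 1 direction and no called difference, 31 rose and 36 fell. Plcb4, a phospholipase C, held 17.3, 57.1 and 52.4 in lung CD11b WT, 852.6, 924.3 and 960.5 in KO, 0, 3.5 and 8.0 in inflammatory WT and 328.5, 392.7 and 423.7 in inflammatory KO. Itgad, the integrin alpha D chain, had effects of 4.29 ± 0.61 and 4.54 ± 0.61, and a difference of 0.25 with a 95% interval of -1.59 to 2.08. For Plcb4 the interval was 0.35 to 4.10, and its adjusted p of 0.152 does not show equal effects. Cd209a, a C-type lectin of type 2 DCs and monocyte-derived cells, held 26776.9, 24081.3 and 21723.2 in lung CD11b WT and 8546.7, 3557.6 and 2176.1 in KO. In inflammatory DCs it held 582.3, 445.2 and 582.4 in WT and 143.6, 63.7 and 59.1 in KO. It fell without overlap in both cell types from very different levels, and the difference was -0.12 with an interval of -1.30 to 1.07. Its relative Cd209b had means of 1232.8 ± 224.6, 41.2 ± 20.6 and 6.7 ± 3.9, and 0 in all 3 inflammatory KO libraries. Gfra2, a receptor for neurturin, Cidec, a lipid droplet protein, and Ocln, a tight junction protein, also fell in both, with uncalled differences of 1.12 ± 0.86, 0.47 ± 0.97 and -0.33 ± 0.95; their inflammatory calls were lost in 7 to 10 alternatives.

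The sorted cells were checked against markers. Flt3, the growth factor receptor of conventional DCs, had means of 2654.0 ± 701.8 and 628.2 ± 427.9 in lung CD11b WT and KO and 129.3 ± 35.6 and 29.4 ± 8.4 in inflammatory WT and KO, with a difference of 0.21 ± 0.62. Zbtb46, a DC transcription factor, had means of 1033.0, 637.4, 97.0 and 45.5. Mgl2, a lectin of type 2 DCs, fell by 2.06 in lung CD11b DCs and 1.15 in inflammatory DCs, and Itgax, the CD11c chain, rose by 1.22 and 0.79, with no called difference for either. Of 14 type 2 DC markers, 7 fell with KO in lung CD11b DCs, where 8.89% of all tested genes fell. In inflammatory DCs 4 of the 14 fell and 1 rose, where 0.682% of all tested genes fell and 0.690% rose. The difference was called in limma for 1 of the 14, Itgam, against 6.75% of all tested genes, and that call was lost in 15 of 26 alternatives. For the difference edgeR called 0 and DESeq2 2, and 5 had an unadjusted p under 0.05 in limma. The inflammatory DCs thus carried low levels of the defining DC genes Flt3 and Zbtb46. Their alveolar macrophage list summed to 464894.7 to 1215155.0 normalized counts, against 7543.9 to 12446.0 in lung CD11b libraries. A sum follows its most abundant members, and the list's median log2 levels were closer, at 8.64 to 9.90 against 6.66 to 7.52.

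Of 24 monocyte and macrophage markers tested, 6 were lower for the difference and none higher, 18 were not called, and the median was -0.19. In lung CD11b DCs 9 rose and 3 fell with KO. Ly6c2, a marker of classical monocytes, held 58.5, 53.9 and 176.5 in lung CD11b WT, 2568.6, 3659.3 and 3397.7 in KO, 725.5, 676.5 and 756.5 in inflammatory WT and 1618.3, 1674.2 and 1210.9 in inflammatory KO, a difference of -4.20 ± 0.46. Ly6c2 is itself induced by interferon. Fcgr1, the CD64 receptor used to tell monocyte-derived cells from DCs, had means of 242.6 ± 121.4, 1600.1 ± 367.8, 912.2 ± 62.7 and 1156.5 ± 69.5, a difference of -2.46 ± 0.37. The summed markers of this list were 132568.1 to 150732.4 in lung CD11b WT, 136840.2 to 190996.8 in KO, 266711.1 to 323535.9 in inflammatory WT and 362188.0 to 429796.2 in inflammatory KO, and no marker was at 0. The list's median log2 levels were 10.93 to 11.19 and 11.32 to 11.64 in lung CD11b WT and KO. In inflammatory WT and KO they overlapped, at 11.45 to 12.03 and 11.65 to 11.76. There 1 of the 24 markers (4.17%) fell with KO, against 0.682% of all tested genes, and none rose, with a median effect of -0.11. Summed DC markers were 714734.0 to 824612.7 in lung CD11b WT and 429978.7 to 490163.6 in KO, without overlap, whereas the list's median log2 levels overlapped at 10.51 to 10.73 and 10.12 to 10.70. For inflammatory WT and KO the DC marker sums overlapped, at 235024.3 to 275633.6 and 238616.4 to 355167.4. The median log2 levels there did not, at 7.29 to 7.58 in WT and 6.03 to 6.26 in KO. Summed plasmacytoid DC markers, which include Bst2 of the interferon list, were 1542.2 to 1901.3 and 2636.6 to 3122.5 in lung CD11b WT and KO. Their median log2 levels overlapped, at 5.60 to 6.68 and 6.41 to 6.56. The part of these cells in the interferon, chemokine and lysosome results was not tested. Differences were called in limma for 0 of 9 T cell, 0 of 8 B cell, 0 of 7 neutrophil and 0 of 4 eosinophil, basophil and mast cell markers, and for 1 of 7 NK cell markers, 1 of 12 epithelial, endothelial and stromal markers and 2 of 8 plasmacytoid DC markers. Over all tested genes 6.75% were called, so 0 or 1 call in lists this short tells little about these cells. In the 4 lists with no call, 3, 1, 1 and 0 markers had an unadjusted p under 0.05, edgeR called 0 and DESeq2 called 2, 0, 1 and 0. Of 12 type 1 DC markers 1 was lower and 1 higher for the difference (16.7% called, against 6.75%). Of 19 alveolar macrophage markers 4 (21.1%) were lower, against 4.32% of all tested genes.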

How the data were processed

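RNA-seq libraries of sorted mouse lung DCs were compared, 3 in each of 4 groups. Per the submitters' processing notes, the authors used STAR 2.3.1s, mm10, HTSeq and DESeq2 1.10.1; for the HTSeq version, annotation and strand setting, nothing was given in the sources used here. Signal values as deposited are gene counts that the authors divided by size factors: each library's values were whole multiples of 1 step within 1e-06 reads for 100% of values, which gave the reads (8.72 to 14.1 M per library; size factors 0.754 to 1.48).

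Differences were tested with limma 3.58.1 in R 4.3.3 on log2(normalized count + 1), which understates changes of low genes. The fit had 4 group means over 12 libraries and a mean-variance trend; genes with a normalized count of at least 10 in at least 2 libraries were tested, and a Benjamini-Hochberg adjusted p under 0.05 over all tested genes was a call. Values are means ± SD over 3 libraries, log2 effects ± SE, and intervals are 95%. edgeR 4.0.16 and DESeq2 1.42.0 on the recovered reads were among 26 alternatives, 3 of them chosen after the data were seen. The contrast, its members and the gene lists were chosen with earlier results of these data known. Named genes were Mtor and 5 cytokine genes and the 10 with the smallest p in each direction with a group mean of at least 50. Up to 5 per list and up to 8 with called effects of opposite or equal sign were also named. Flt3, Zbtb46, Id2, Pbxip1, Gbp2, Ccl5 and Irf1 were named outside these rules, and other such genes are marked. The code was tested on simulated data. Reads of near-identical copies (Oas1a and Oas1g, Ifit3 and Ifit3b, the Slfn, Cd209 and H2 families) may be split between them. Results for 1 gene are not reported here.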

Additional observations from a re-analysis of the deposited data

Results flagged for a closer look

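The KO effect differed between inflammatory and lung CD11b DCs, by the test of the difference itself, with a lower value for 545 genes and a higher value for 306. For 10 of them both KO effects were called and had opposite signs; the 8 with the largest smaller effect are given. The difference was 2.54 for Ltb4r1, 1.46 for Clec12a, 1.78 for Cd33 and 1.87 for Lrrk2, which fell in lung CD11b DCs and rose in inflammatory DCs. It was -4.91 for Tnfrsf4, -5.01 for Ikzf4, -4.17 for Stk39 and -2.23 for Cacnb3, which rose in lung CD11b DCs and fell in inflammatory DCs. Ikzf4 had 0 or 1.3 normalized counts in inflammatory KO, so its size is set by the pseudocount.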

How the results depend on the processing

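The number of genes called for the difference, 851, became 1734 with all 26 libraries in the fit, 1332 with DESeq2 and 540 with only the lung CD11b libraries that had more detected genes, and ran from 547 to 1414 when 1 library was left out. The lung CD11b count, 2273, became 3471 with all 26 libraries and 798 with the more detected lung libraries only, and ran from 1615 to 3060 when 1 library was left out. The inflammatory count, 173, became 448 with all 26 libraries, 407 with DESeq2, 813 with sample weights, 60 without the 2 libraries of mixed sex and 488 with the more detected lung libraries only, and ran from 34 to 223 when 1 library was left out. The cause was not tested. edgeR called 856 differences, of which 789 were among the 851. Of 119 genes followed through 26 alternatives, 103 were called for the difference, 65 of them in every alternative and 38 not in at least 1, and none of the 103 changed sign; of 16 not called, 5 were called in at least 1 alternative and 11 changed sign in at least 1 without a call. No paired analysis was possible because each library carries its own number, which no library of another group shares. The 3 alternatives based on the number of detected genes were added after the data were seen. The fit with fewer detected genes kept 1 lung WT library (replicate 3) and that with more kept 1 lung KO library (replicate 1); each lone library was assumed to vary like the other groups. At 8.72 to 14.1 M reads, changes in genes with a few counts, such as Il23a, were not detectable.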

Other observations

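Cytosolic ribosomal protein genes, chosen by symbol after their values were seen, were mostly above 0. Of 77 tested, the difference was called higher for 12, 72 were above 0, and the median difference was 0.38; over all 12607 tested genes 2.43% were called higher and 6420 were above 0. In inflammatory DCs 10 of the 77 rose with KO, against 0.690% of all tested genes. There 74 had effects above 0, and the median effect was 0.36, against -0.015 over all tested genes. In lung CD11b DCs the median effect was -0.04. Irf1, a transcription factor that responds to type II interferon, was 1 of 34 genes called in inflammatory DCs and for the difference but not in lung CD11b DCs. It rose by 0.82 ± 0.19 in inflammatory DCs, against an uncalled -0.20 ± 0.19 in lung CD11b DCs. The difference was 1.02 ± 0.26. Irf1 was named outside the naming rules, and its calls were not followed through the alternative fits. The inflammatory count of 173 called genes ran from 34 to 223 when 1 library was left out. These calls for Irf1, and the ribosomal protein calls in inflammatory DCs, are therefore tentative.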
